A study of Mus musculus with 20 samples.

Results

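The genes described here encode enzymes and regulators of cholesterol and fatty acid synthesis. A list of 32 gene symbols was matched to the rows of a table of reads per gene, and 31 of them had a row among the 24047 genes of the table. Hmgcs1 was not analysed here. All 31 genes passed the filter on low counts that left 13476 genes for testing. By role, 6 belong to the mevalonate arm, 10 to the sterol arm that forms squalene and turns it into cholesterol, 6 are regulators or carriers of sterols, and 9 belong to the fatty acid arm.

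Reads were counted in 20 RNA libraries. The source was mouse gastric organoids, small epithelial structures that grow in culture from stomach tissue. The organoids came from 8 lines labelled strain BL/6, and each combination of p53 genotype and dysplasia label held 2 lines. Lines 300 and 1269 were WT and labelled not dysplastic, lines 565 and 752 were WT and labelled dysplastic, and lines 794 and 801 were p53 KO with the gene lost in vivo and labelled dysplastic. The non-dysplastic p53 KO lines differed in how p53 was lost, in vivo in line 650 and ex vivo in line 1270. All lines were grown in conditioned medium, libraries were made from total RNA with an mRNA kit, and the comparison of interest was of organoids with and without p53. Each line gave 2 or 3 libraries, which share their source, so counts were summed per line and the line was the unit of replication.

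Cells make cholesterol from acetyl-CoA through mevalonate, isoprenoids and squalene, and they make fatty acids from the same acetyl-CoA through malonyl-CoA. Transcription of both pathways is driven by the sterol regulatory element binding proteins, SREBPs, which are held in the endoplasmic reticulum by the escort SCAP and the INSIG anchors while sterols are plentiful and are released to the nucleus when sterols run low. SREBP2 acts mainly on cholesterol genes and SREBP1 mainly on fatty acid genes, and in a secretory epithelium such as that of the stomach these lipids supply membranes.

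Total counts ran from 5669521 to 16323270 per library and from 22217126 to 36880593 per line. Levels are given as CPM, counts scaled to a common library size after normalization by the trimmed mean of M-values, and are compared between lines and not between genes. Where 2 values are given for a class, they are for lines 300 and 1269, 650 and 1270, 565 and 752, or 794 and 801, in that order. Trp53, which encodes p53 and checks the genotype labels, lay between 112 and 161 CPM in the 4 WT lines. The KO lines had 26.9 and 4.99 CPM without dysplasia and 6.92 and 22.2 CPM with it, so the groups did not overlap. The log2 fold change of Trp53 was -3.17 with SE 0.60, with an adjusted p of 0.739 by edgeR and 9.8e-07 by DESeq2. The summed level of 5 gastric epithelial markers ranged from 9651 to 13553 CPM, immune markers summed to 9.52 to 52.6 CPM, and the parietal marker Atp4b and the adipocyte marker Lep were at 0 in every line. The Y-linked Ddx3y had 45.0 and 23.4 CPM in lines 300 and 650 and at most 0.0791 CPM elsewhere, so both male lines were non-dysplastic and all 4 dysplastic lines were female. Libraries 300-2, 650-2, 565-3, 752-3, 794-3 and 801-3 stood apart from their sister libraries on an axis that held 61.1% of the variance within lines. Highest and lowest lines, line medians, pairs of lines and separated genes are given with and without them. The fitted differences between classes are given from all libraries.

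The highest and lowest levels of the lipid synthesis genes lay mostly in single lines. Line 794, a dysplastic p53 KO line, had the highest level of 24 of the 31 genes, or 77.4%, whereas it was highest for 22.0% of all genes tested. Line 1269, a non-dysplastic WT line, had the lowest level of 25 of the 31 genes, or 80.6%, against 17.1% of all genes. Without the 6 libraries that stand apart, line 794 was highest for 25 and line 1269 lowest for 27 of the 31.

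**Figure D1:**
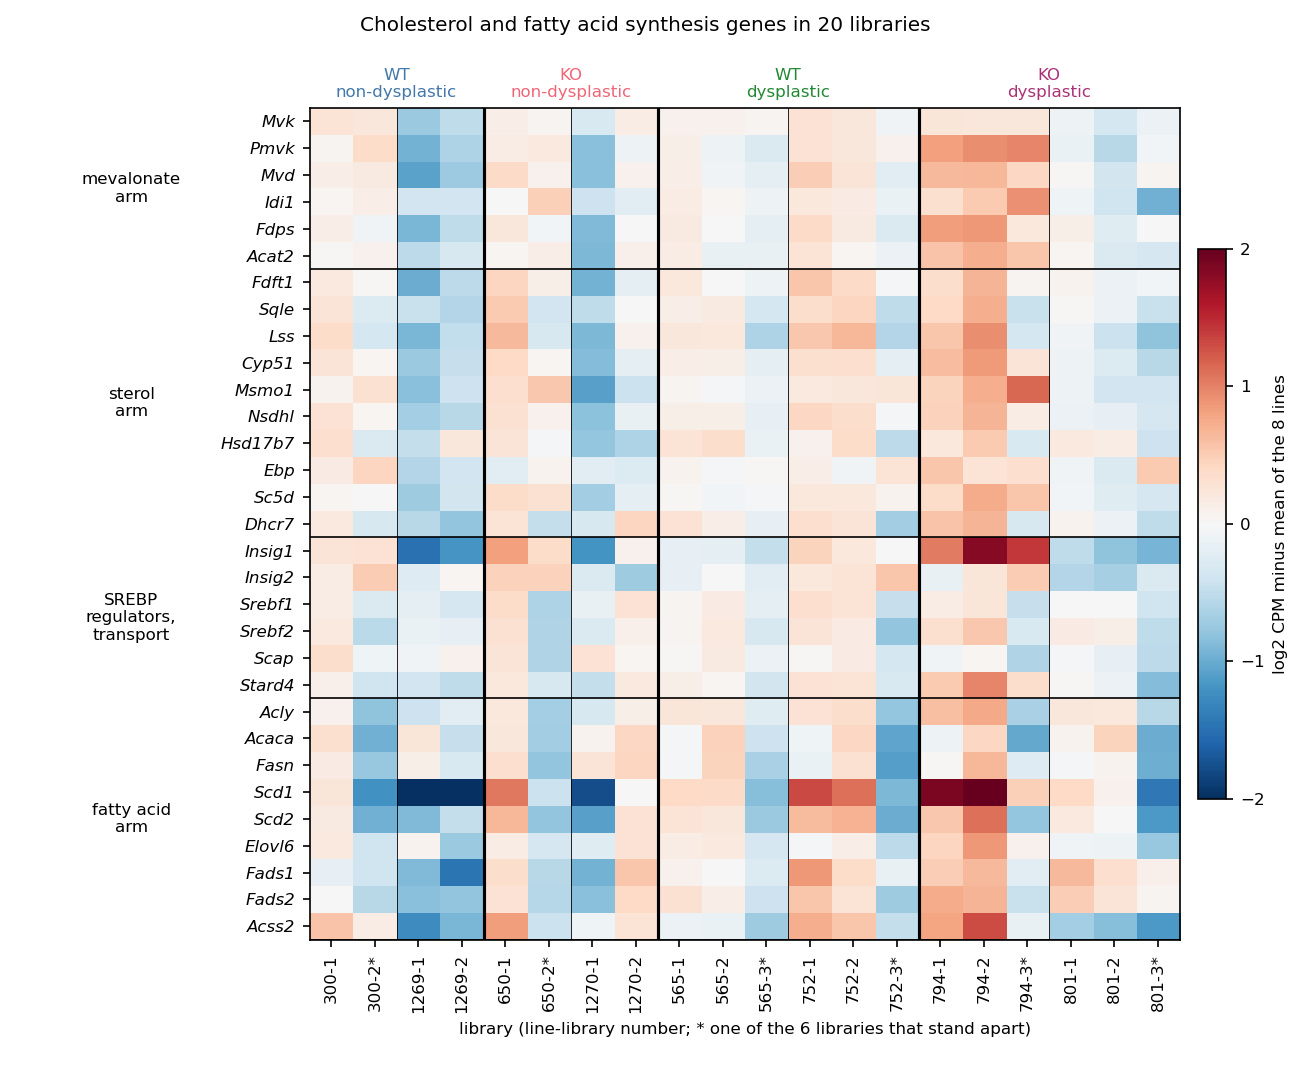
Level of each gene in each library, as log2 CPM minus the mean of the 8 line values, with genes in rows by role and libraries in columns by class and line; an asterisk marks the 6 libraries that stand apart and colours end at 2 in either direction. The columns of line 794 are red and those of line 1269 blue over most genes, and within a line the starred column is lower than the mean of its sisters over all 9 fatty acid genes.

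The median deviation of the 31 genes from the mean of the 8 lines, on the log2 CPM scale, was highest in lines 794, 752 and 650, at 0.49, 0.18 and 0.13. Lines 300 and 565 had 0.059 and 0.022, and the lowest were 801, 1270 and 1269 with -0.11, -0.27 and -0.60. Over all genes tested the same median stayed between -0.011 and 0.0096. The highest and lowest line each had a partner of the same class far from it, since line 801 lay below and line 300 above the mean of the lines. Line 794 exceeded line 801 in 29 of 31 genes with a median log2 difference of 0.63, and line 300 exceeded line 1269 in 29 of 31 genes with a median difference of 0.59. Without the 6 libraries that stand apart, the same pairs differed by medians of 0.68 and 0.79. These pairs have 1 line on each side and carry no test.

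**Figure D2:**
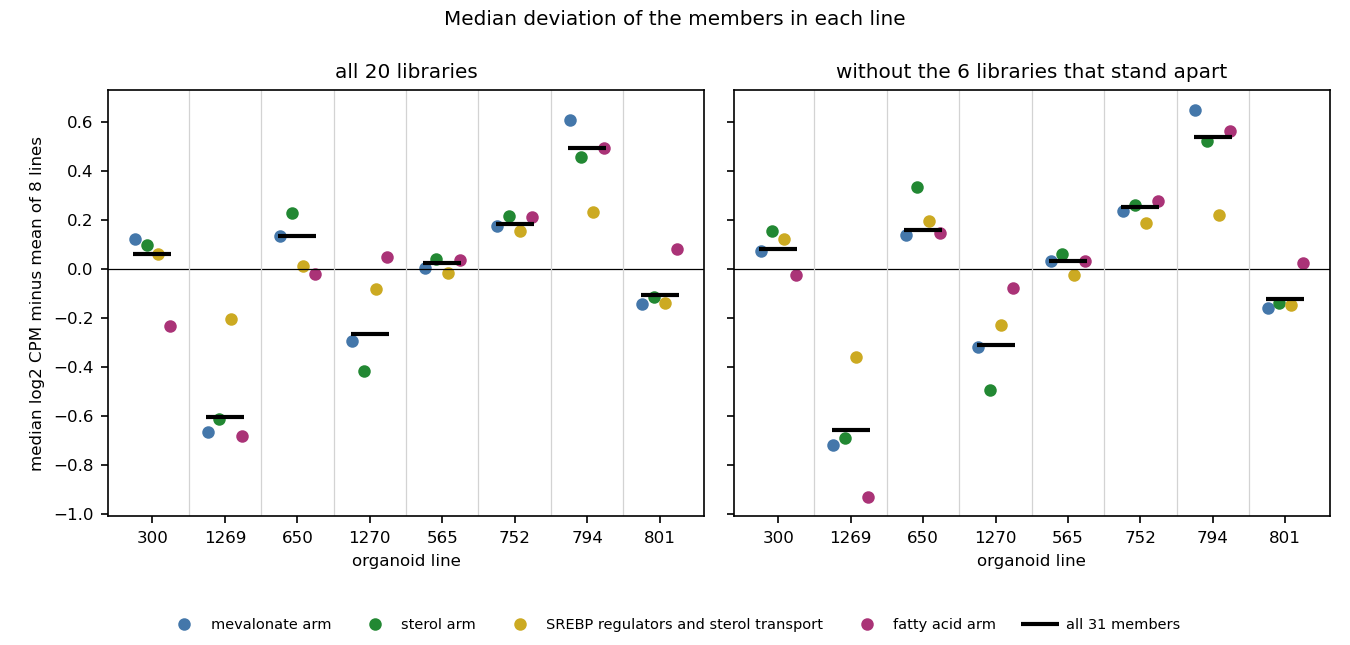
Median deviation of the genes of each role (coloured points) and of all 31 genes (black bars) in each organoid line, in log2 CPM relative to the mean of the 8 lines, from all 20 libraries on the left and without the 6 libraries that stand apart on the right. Line 794 has the highest bar and line 1269 the lowest in both panels, at 0.49 and -0.60 on the left and at 0.54 and -0.66 on the right.

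Both lines that stood at the ends also differed in other markers. The summed level of the pit cell markers Muc5ac, Gkn1, Gkn2 and Tff1 reached 4611 CPM in line 794 and 1066 CPM in 1270, while the other 6 lines had 39.5 to 241 CPM. The neck cell markers Muc6 and Tff2 summed to 1265 and 113 CPM in non-dysplastic WT, 1073 and 122 in non-dysplastic KO, 380.4 and 911 in dysplastic WT, and 850.0 and 261 in dysplastic KO organoids. Line 1269 was the lowest. In each of the 4 classes the line with the higher lipid gene median also had the higher neck marker sum. Muc6 alone kept that order in lines 300 and 1269, at 142 and 98.1 CPM, and in 794 and 801, at 259 and 139 CPM. It went the other way in lines 650 and 1270, at 67.2 and 80.0 CPM, and in 565 and 752, at 172 and 83.1 CPM. In those classes the order of the sum came from Tff2. The chief cell markers ranged from 36.1 CPM in line 1269 to 964 CPM in line 1270, with line 794 at 52.2 CPM. Of 10 proliferation genes, 10 were highest in line 1269 and 10 were lowest in line 650. The adipocyte markers, of which Cidec made up nearly all of the signal, summed to 2.12 to 8.88 CPM, and the hepatocyte markers to 1.87 to 40.4 CPM with line 794 at 2.42 CPM. The part of these markers in the lipid gene pattern was not tested, and in bulk RNA fewer cells of a type and less RNA per cell cannot be told apart.

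Because many of these genes were highest and lowest in the same lines, their promoters were searched for boxes known from sterol-regulated genes. RefSeq promoters of GRCm38.p6 were matched by symbol for 24 of the 31 genes, and the 250 bases before each listed start were read on both strands. The box CCAAT, which binds NF-Y, a partner of the SREBPs, occurred at 1 or more starts of 18 of 24 genes (75%), against 37.5% of 27025 genes with a promoter entry. It was present in 8 of 8 sterol arm genes, 4 of 5 mevalonate arm genes, 4 of 5 regulators and carriers, and 2 of 6 fatty acid arm genes. The Sp1 box GGGCGG, a separate motif, occurred in 20 of 24 genes (83.3%), against 35.4% of genes. All 24 genes passed the count filter, whereas the 27025 genes were not limited to the 13476 that did. The shares are therefore not a like comparison, and a link between these boxes and the line pattern was not tested. The sterol regulatory element core TCACNCCAC occurred in 0 of 24, against 1.22% of genes, which says only that these letters were not in these windows. Fdps, Fdft1, Sqle, Stard4, Scd1, Scd2 and Fads1 had no entry.

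The 100 bases just before the start are shown for 7 genes, 5 with a CCAAT box from 3 of the roles and, for contrast, Acly and Fads2, the genes with the smallest p-values for dysplasia, which had no such box in 250 bases. Each runs 5′ to 3′ on the strand of the gene, with CCAAT or its reverse complement ATTGG in capitals, and in Fasn a pair of these overlap. A match is a description of letters and not of a bound site.
Mvk, chr5:114444169-114444268, plus strand: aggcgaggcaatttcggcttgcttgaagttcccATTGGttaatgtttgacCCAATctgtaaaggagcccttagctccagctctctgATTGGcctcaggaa
Cyp51, chr5:4104698-4104797, minus strand: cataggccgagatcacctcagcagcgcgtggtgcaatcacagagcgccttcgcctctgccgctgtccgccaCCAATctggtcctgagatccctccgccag
Msmo1, chr8:64733579-64733678, minus strand: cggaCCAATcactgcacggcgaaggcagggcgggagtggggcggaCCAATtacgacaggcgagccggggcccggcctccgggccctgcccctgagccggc
Hsd17b7, chr1:169969206-169969305, minus strand: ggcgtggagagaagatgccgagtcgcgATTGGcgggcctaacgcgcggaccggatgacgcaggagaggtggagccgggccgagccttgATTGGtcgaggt
Fasn, chr11:120824548-120824647, minus strand: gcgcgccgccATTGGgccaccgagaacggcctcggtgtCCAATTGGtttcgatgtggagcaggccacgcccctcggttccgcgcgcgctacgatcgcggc
Acly, chr11:100528001-100528100, minus strand: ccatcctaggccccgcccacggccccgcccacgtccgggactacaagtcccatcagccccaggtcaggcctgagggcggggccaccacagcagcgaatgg
Fads2, chr19:10101504-10101603, minus strand: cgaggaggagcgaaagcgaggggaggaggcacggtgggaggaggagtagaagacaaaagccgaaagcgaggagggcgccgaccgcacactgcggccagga

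In the mevalonate arm, all 6 genes were lowest in line 1269, and 5 were highest in line 794. Acat2 joins acetyl-CoA units, Mvk phosphorylates mevalonate and Pmvk the resulting phosphomevalonate, Mvd yields isopentenyl diphosphate, Idi1 isomerises that, and Fdps builds farnesyl diphosphate. Fdps had 226 and 134 CPM in non-dysplastic WT, 236 and 172 in non-dysplastic KO, 222 and 245 in dysplastic WT, and 359 and 218 in dysplastic KO organoids. The dysplastic and non-dysplastic lines therefore overlapped, with line 794 far above and line 1269 far below the rest. The other genes of the arm varied between lines from 1.86-fold in Mvk to 3.22-fold in Pmvk. Mean levels in dysplastic lines exceeded those in non-dysplastic lines for all 6, as in Mvd with 147 ± 32.8 against 116 ± 38.0 CPM (SD, n = 4 lines each), a gap smaller than the SD of either group.

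In the sterol arm, all 10 genes were highest in line 794, and 8 were lowest in line 1269. The other 2, Msmo1, a methyl sterol oxidase, and Hsd17b7, a sterol ketoreductase, were lowest in line 1270. Sqle, the squalene epoxidase and a rate-limiting enzyme of the pathway, measured 288 and 196 CPM in non-dysplastic WT, 322 and 242 in non-dysplastic KO, 286 and 327 in dysplastic WT, and 365 and 265 in dysplastic KO organoids. Its 4 dysplastic lines spanned 265 to 365 CPM and its 4 non-dysplastic lines 196 to 322 CPM, so the groups overlapped. Ebp, a sterol isomerase, had 121 and 69.9 CPM in non-dysplastic WT, 92.1 and 81.4 in non-dysplastic KO, 101 and 105 in dysplastic WT, and 130.0 and 99.1 in dysplastic KO organoids. Within the WT non-dysplastic class alone Ebp thus covered nearly its whole range. Across the arm the ratio of the highest to the lowest line ran from 1.86 in Sqle and Ebp to 2.75 in Msmo1.

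Among the regulators, Insig1 varied far more than the transcription factors it helps to restrain. Insig1, itself an SREBP target, measured 281 and 91.2 CPM in non-dysplastic WT, 360.2 and 179 in non-dysplastic KO, 194 and 277 in dysplastic WT, and 635 and 146 in dysplastic KO organoids. Lines 794 and 801, of one class, were its first and its seventh highest, and the 6.96-fold range was the second largest of the 31 genes. Insig2, the related anchor, followed another order, at 89.5 and 65.4 CPM in non-dysplastic WT, 97.2 and 48.9 in non-dysplastic KO, 65.8 and 88.9 in dysplastic WT, and 80.6 and 49.0 in dysplastic KO organoids. Line 650 was its highest, and every class overlapped every other.

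The transcription factor genes were nearly level. Srebf2, which encodes SREBP2, had 393 and 380.2 CPM in non-dysplastic WT, 415 and 399 in non-dysplastic KO, 423 and 429 in dysplastic WT, and 513 and 439.7 in dysplastic KO organoids. In the sums of all libraries its 4 dysplastic lines lay above its 4 non-dysplastic lines, by 423 against 415 CPM at the nearest. Without the libraries that stand apart the groups overlapped, with 522 CPM in 650-1 against 471 and 456 CPM in 801-1 and 801-2. Srebf1, which encodes SREBP1, had 202 and 174 CPM in non-dysplastic WT, 211 and 222 in non-dysplastic KO, 212 and 232 in dysplastic WT, and 217 and 202 in dysplastic KO organoids. Its non-dysplastic WT lines were the lowest, at 202.3 CPM against 202.5 CPM in line 801 at the nearest, and the other classes overlapped. Among libraries that do not stand apart, line 300 exceeded line 801, at 231 CPM in library 300-1 against 207 and 210 CPM. Scap, the escort, measured 144 and 129 CPM in non-dysplastic WT, 123 and 141 in non-dysplastic KO, 132 and 129 in dysplastic WT, and 117 and 116 in dysplastic KO organoids. Lines 794 and 801 were its lowest, and its range of 1.24-fold was the smallest of the 31 genes. Stard4, a sterol carrier, reached 151 CPM in line 794 and lay between 69.5 and 106 CPM in the other lines.

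In the fatty acid arm, 6 of 9 genes were highest in line 794 and 7 were lowest in line 1269. Scd1, the stearoyl-CoA desaturase, had the widest range of all 31 genes, at 198 and 34.1 CPM in non-dysplastic WT, 360.4 and 164 in non-dysplastic KO, 257 and 451 in dysplastic WT, and 947 and 255 in dysplastic KO organoids. The highest line exceeded the lowest 27.8-fold, and both non-dysplastic WT lines lay below all dysplastic lines, while non-dysplastic KO overlapped every other class. Its paralog Scd2 kept the ends of that order with a 2.38-fold range, at 1836 and 1359.8 CPM in non-dysplastic WT, 2505 and 1900.4 in non-dysplastic KO, 2183 and 2871 in dysplastic WT, and 3241 and 2126 in dysplastic KO organoids. Reads of these paralogs could be shared, since the authors' counting is not described in the sources used here.

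Acly, which makes cytosolic acetyl-CoA from citrate, separated the dysplasia labels. It had 331 and 319.9 CPM in non-dysplastic WT, 369 and 378 in non-dysplastic KO, 429.7 and 432 in dysplastic WT, and 544 and 434 in dysplastic KO organoids. In the sums of all libraries, every dysplastic line lay above every non-dysplastic line. Single libraries that do not stand apart overlapped, at 462 CPM in 650-1 against 466 and 460 CPM in 801-1 and 801-2. Fasn, which builds palmitate from the malonyl-CoA that Acaca makes, did not follow it, at 327 and 354 CPM in non-dysplastic WT, 361 and 471 in non-dysplastic KO, 373 and 345 in dysplastic WT, and 441 and 348 in dysplastic KO organoids. Line 1270 was highest for both Fasn and Acaca, and line 300 was lowest for both. Without the 6 libraries that stand apart, line 1270 was highest for 0 and line 1269 lowest for 9 of the 9 fatty acid arm genes, and line 794 was highest for 7.

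The fatty acid desaturases Fads1 and Fads2 act in the synthesis of polyunsaturated fatty acids. Fads1 had 44.5 and 24.2 CPM in non-dysplastic WT, 54.1 and 55.2 in non-dysplastic KO, 52.0 and 74.4 in dysplastic WT, and 70.9 and 73.7 in dysplastic KO organoids. Lines 752, 794 and 801 were above all others, and line 565 lay within the range of the non-dysplastic lines. Fads2 measured 91.9 and 61.0 CPM in non-dysplastic WT, 107 and 105 in non-dysplastic KO, 113 and 125 in dysplastic WT, and 153 and 139 in dysplastic KO organoids. In the sums of all libraries, its 4 dysplastic lines lay above its 4 non-dysplastic lines. In the same sums, within each dysplasia class its KO lines lay above its WT lines. Among libraries that do not stand apart, KO and WT overlapped in both classes. With dysplasia, 752-1 and 752-2 had 159 and 131 CPM against 153 and 130 CPM in 801-1 and 801-2. Without dysplasia, 300-1 had 108 CPM against 60.9 and 143 CPM in 1270-1 and 1270-2. Acss2, which makes acetyl-CoA from acetate, spanned 26.4 to 101 CPM, and Elovl6, a fatty acid elongase, 79.3 to 139 CPM.

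**Figure D3:**
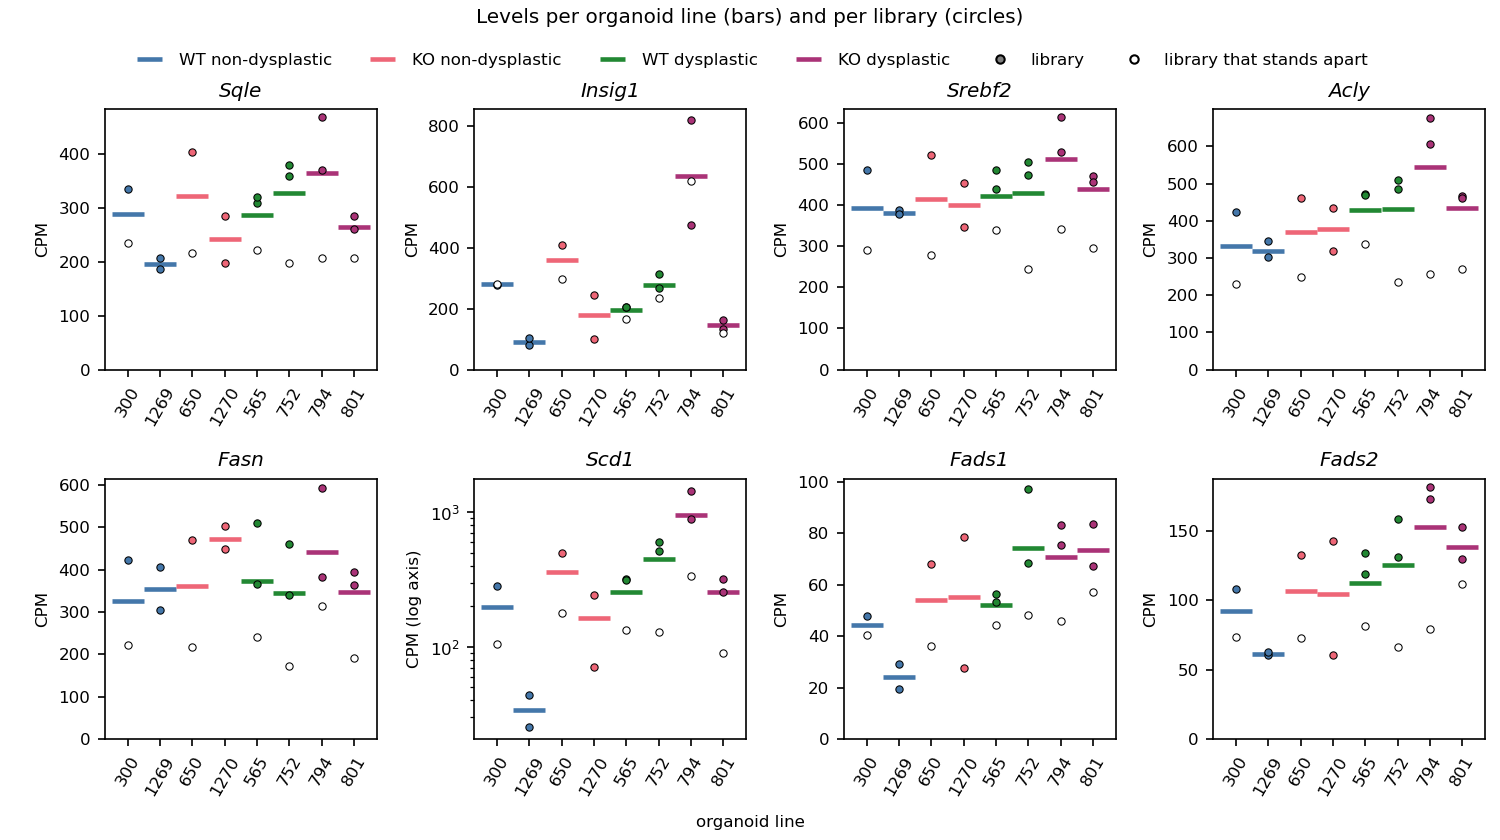
Level of 8 genes in CPM for each organoid line, with coloured bars for the value of the summed line and circles for its libraries; open circles are the libraries that stand apart, and the axis of Scd1 is logarithmic. For Acly the bars of the 4 dysplastic lines lie at 430 to 544 CPM and those of the 4 non-dysplastic lines at 320 to 378 CPM, and the open circle lies below the filled ones of its line in every panel other than that of Insig1, where lines 300 and 794 are exceptions.

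The first comparison asks how the genes differ with and without p53. In p53 KO against WT lines, averaged over both dysplasia labels, most lipid synthesis genes were slightly higher and no single gene passed the test. Of the 31 genes, 28 had a fitted difference above 0, with a median of 0.18 on the log2 scale, while 48.5% of all genes lay above 0 with a median of -0.0058. The edgeR quasi-likelihood test called 0 of 31 at an adjusted p of 0.05, where it called 0% of all genes. At an unadjusted p under 0.05 there was 1, Fads2, beside 4.03% of all genes. DESeq2 called 0 of 31 beside 0.542% of all genes, and limma-voom 0 of 31 beside 0.497%.

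By role, the differences were above 0 for 6 of 6 mevalonate arm genes, 9 of 10 sterol arm genes, 4 of 6 regulators and carriers and 9 of 9 fatty acid arm genes. The medians on the log2 scale were 0.20, 0.13, 0.089 and 0.27 in that order. Mean Fads2 was 126 ± 23.8 CPM with p53 lost and 97.8 ± 28.1 CPM in WT (SD, n = 4 lines per group). The log2 fold change was 0.38 with SE 0.15 and an edgeR adjusted p of 1.00. The groups overlapped, since KO lines 650 and 1270 lay below WT lines 565 and 752. Fads1 had a log2 fold change of 0.43 with SE 0.21, Acly 0.19 with SE 0.12 and Fasn 0.21 with SE 0.14, with edgeR adjusted p-values of 1.00. The largest difference was that of Scd1, 0.97 with SE 0.65 on the log2 scale, followed by Insig1 with 0.63 and SE 0.55. For no gene did all KO lines lie above or below all WT lines, beside 0.92% of all genes that separated upward and 1.46% that separated downward. Without line 794 the median of the 31 genes was -0.0005, with 15 above 0, and without line 1269 it was 0.025, with 22 above 0. It was 0.078 when line 650 was left out, and 0.33 and 0.31 when line 300 or 801 was.

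**Figure D4:**
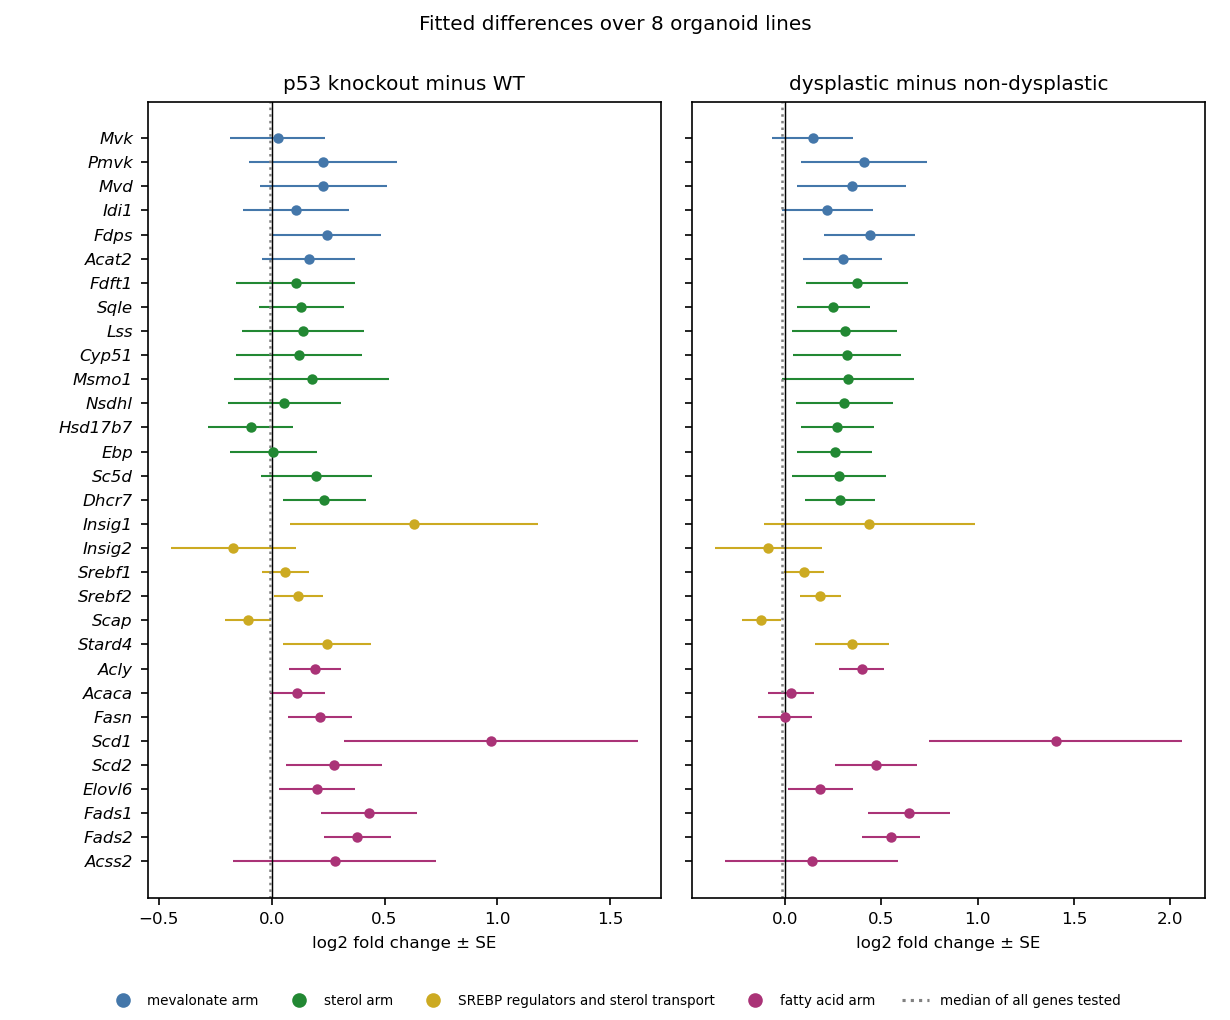
Fitted log2 fold change of each gene with its SE (horizontal bars) for p53 KO minus WT on the left and for dysplastic minus non-dysplastic on the right, over 8 organoid lines, coloured by role; the dotted line is the median of all genes tested. Most points lie to the right of 0 in both panels, at a median of 0.18 and 0.30, and the widest bars belong to Scd1 and Insig1.

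Within the non-dysplastic lines, 27 of 31 differences between KO and WT were above 0, with a median of 0.20, against a median of -0.024 over all genes. Here edgeR called 0 of 31 beside 0% of all genes, and 0 had an unadjusted p under 0.05 beside 1.91% of all genes. With DESeq2 the count was 0 of 31 beside 0.0445%, and with limma-voom 0 of 31 beside 0.0395%. The smallest p-values were those of Fads1, with a log2 fold change of 0.67 and SE 0.30, Fads2 with 0.47 and SE 0.21, Scd2 with 0.46 and SE 0.30, and Fasn with 0.29 and SE 0.20. Each had an edgeR adjusted p of 1.00. Leaving out line 1269 or 650 gave medians of -0.025 and 0.0045, and leaving out line 300 or 1270 gave 0.55 and 0.38.

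The KO lines of this class also differ in how p53 was lost, with 1 line each and therefore no test. Line 650, in which the loss was in vivo, exceeded line 1270, in which it was ex vivo, in 23 of 31 genes, with a median log2 difference of 0.40. The difference was spread unevenly over the roles, with values of 0.68 in the sterol arm, 0.49 in the mevalonate arm, 0.074 in the regulators and carriers and -0.028 in the fatty acid arm. The sister libraries of line 1270 themselves differed, and without library 1270-1, left out after its values were seen, line 650 was higher in 18 of 31 genes with a median difference of 0.17. Without the 6 libraries that stand apart it was higher in 30 genes, with a median difference of 0.57. Mode of loss, sex and line cannot be told apart here.

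Within the dysplastic lines, 26 of 31 differences between KO and WT were above 0, with a median of 0.14, against 0.015 over all genes. The edgeR test called 0 of 31 beside 0% of all genes, and 0 had an unadjusted p under 0.05 beside 4.36% of all genes. By DESeq2 it was 0 of 31 beside 0.522%, and by limma-voom 0 of 31 beside 0.797%. Fads2 had a log2 fold change of 0.29 with SE 0.21, Acly 0.18 with SE 0.16, Srebf2 0.16 with SE 0.15 and Scap -0.16 with SE 0.14, all with edgeR adjusted p-values of 1.00. Without line 794 the median was -0.21 with 5 genes above 0, and without line 801 it was 0.33 with 28 above 0. Leaving out line 565 gave 0.056.

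The second comparison sets lines labelled dysplastic against the others. Averaged over both genotypes, the lipid synthesis genes were higher in dysplastic lines for 28 of 31 genes, with a median log2 difference of 0.30, against 46.2% of all genes above 0 and a median of -0.017. The edgeR test called 0 of 31 beside 0% of all genes. At an unadjusted p under 0.05 there were 3, Fads2, Acly and Fads1, beside 5.91% of all genes. DESeq2 called 0 of 31 beside 1.16% of all genes, and limma-voom 0 of 31 beside 1.09%.

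By role, 6 of 6 mevalonate arm genes and 10 of 10 sterol arm genes had differences above 0, with medians of 0.32 and 0.30. So did 4 of 6 regulators and carriers, with a median of 0.14, and 8 of 9 fatty acid arm genes, with a median of 0.40. The sterol arm was the most uniform, from 0.25 in Sqle to 0.37 in Fdft1. The exceptions were Scap with -0.12, Insig2 with -0.086 and Fasn with -0.0017 on the log2 scale.

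Mean Fads2 was 132 ± 17.2 CPM with dysplasia and 91.1 ± 21.0 CPM without (SD, n = 4 lines per group). The log2 fold change was 0.55 with SE 0.15 and an edgeR adjusted p of 0.634. Acly averaged 460 ± 56.3 against 349 ± 28.2 CPM, a log2 fold change of 0.40 with SE 0.12 and an edgeR adjusted p of 0.654. Its adjusted p, like that of Fads2, was 0.0815 by DESeq2, the smallest of any gene of the list in any comparison and setting. Fads1 had a log2 fold change of 0.64 with SE 0.21 and an edgeR adjusted p of 0.718, and Scd2 one of 0.47 with SE 0.21 and an edgeR adjusted p of 0.881. Scd1 had the largest difference, 1.40 with SE 0.66 and an edgeR adjusted p of 0.898. A p-value that misses the threshold does not show that levels were alike.

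For 3 of 31 genes, Srebf2, Acly and Fads2, all dysplastic lines lay above all non-dysplastic lines, beside 1.74% of all genes. None lay below, beside 1.31% of all genes. Without the 6 libraries that stand apart, or without library 1270-1, Acly alone remained separated by line. Its single libraries were not separated, since 650-1 had 462 CPM and 801-2 460 CPM. The median over the 31 genes was above 0 whichever line was left out, and lowest without lines 794, 1269 and 1270, at 0.088, 0.14 and 0.17. It was highest without line 300, at 0.47. With the sex of the line as a covariate it was 0.55, and both male lines were in the non-dysplastic group.

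In WT lines alone, 29 of 31 genes had differences above 0 between dysplastic and non-dysplastic lines, with a median of 0.30 against -0.035 over all genes. The edgeR test called 0 of 31 beside 0% of all genes, and 3 had an unadjusted p under 0.05 beside 1.16% of all genes. Calls by DESeq2 were 0 of 31 beside 0.0297% and by limma-voom 0 of 31 beside 0%. The 3 were Fads1, with a log2 fold change of 0.88 and SE 0.30, Fads2 with 0.64 and SE 0.21, and Acly with 0.40 and SE 0.16, and Scd2 came next with 0.66 and SE 0.30. Each had an edgeR adjusted p of 1.00. The median was 0.091 without line 1269 and 0.74 without line 300.

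In KO lines alone, 25 of 31 genes had differences above 0, with a median of 0.27 against 0.016 over all genes. The edgeR test called 0 of 31 beside 0% of all genes, and 1, Acly, had an unadjusted p under 0.05 beside 7.54% of all genes. DESeq2 called 0 of 31 beside 1.46% and limma-voom 0 of 31 beside 1.89%. Acly had a log2 fold change of 0.39 with SE 0.16 and an edgeR adjusted p of 0.662. Fads2 had one of 0.46 with SE 0.21, Srebf2 one of 0.23 with SE 0.15 and Fdps one of 0.50 with SE 0.34. The median turned to -0.098 without line 794, with 9 genes above 0, and was 0.54 without line 801. Leaving out line 650 or 1270 gave 0.47 and 0.075, and leaving out library 1270-1 gave 0.16.

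The interaction asks whether the difference between KO and WT depends on dysplasia. It was below 0 for 20 of 31 genes, with a median of -0.11 against 0.045 over all genes, and 8 of the 9 fatty acid arm genes were below 0. The edgeR test called 0 of 31 beside 0% of all genes, and 0 had an unadjusted p under 0.05 beside 1.79% of all genes. DESeq2 called 0 of 31 beside 0% and limma-voom 0 of 31 beside 0%. The smallest p-values were those of Srebf1, with -0.29 and SE 0.21, Fads1 with -0.48 and SE 0.42, Scd2 with -0.38 and SE 0.42, and Ebp with 0.29 and SE 0.39, and all edgeR adjusted p-values were 1.00. Its median was -0.43, -0.41 and -0.29 when line 794, 300 or 1270 was left out. It turned to 0.18, 0.12, 0.11 and 0.023 when line 801, 1269, 650 or 752 was left out. These comparisons share lines, so their values stand side by side and are not independent.

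Single libraries also set the levels. In each of the 6 lines concerned, the library that stands apart was lower than its sisters for most of the 31 genes, with median log2 differences from -0.31 in line 565 to -0.58 in lines 752 and 794. Of the 31 genes, 21 were lower in 6 of 6 lines, or 67.7%, beside 26.5% of all genes. All 9 fatty acid arm genes were among them, with log2 differences from -2.10 to -1.24 in Scd1 and from -1.65 to -0.98 in Scd2. In the mevalonate arm the medians lay between -0.27 in Fdps and 0.078 in Pmvk. Pmvk, Msmo1, Ebp and Insig2 had median differences above 0, from 0.078 to 0.32.

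**Figure D5:**
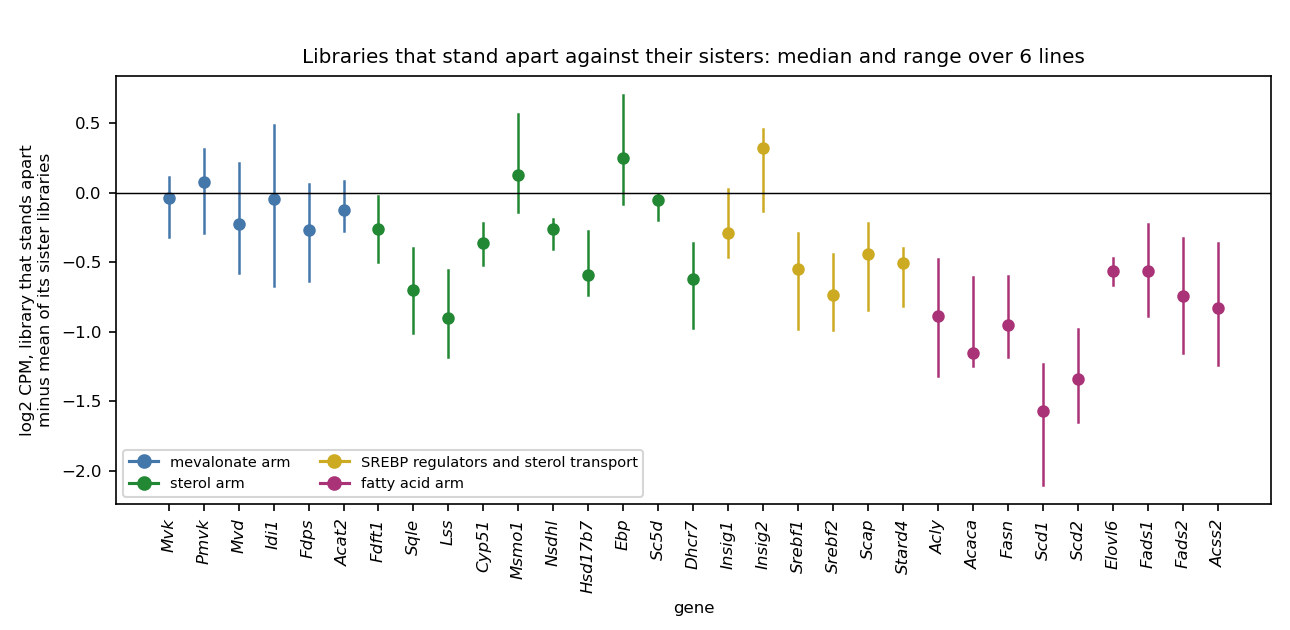
Log2 CPM of the library that stands apart minus the mean of its sister libraries for each gene, as the median (point) and the range (line) over the 6 organoid lines that hold such a library. The fatty acid arm genes lie below 0 over their whole range, with Scd1 lowest at a median of -1.57, while Insig2 and Ebp have medians above 0.

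Lines 1269 and 1270 hold no such library, so in the sums the other lines carry these lower values and these lines do not. Line 1269 nevertheless had the lowest and line 1270 the second lowest median in the sums, and leaving the 6 libraries out gave -0.66 and -0.31 in place of -0.60 and -0.27. In line 1270, library 1270-2 exceeded library 1270-1 in 28 of 31 genes with a median log2 difference of 0.64. Scd1 stood at 243 CPM in the former and 70.4 CPM in the latter. In line 794 all libraries had high Insig1, at 475, 819 and 619 CPM, whereas Scd1 was 887 and 1440 CPM in 2 of them and 334 CPM in library 794-3. Over the 12 other libraries of the 6 lines with more than 1 such library, the SD between lines exceeded the SD between sister libraries for 28 of 31 genes, and the median SD was 0.41 between lines and 0.24 between sisters, in log2 units. The exceptions were Scap, Acaca and Fasn.

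Other genes of lipid handling were followed in lists. Of 7 further cholesterol synthesis genes, 5 were highest and 1 was lowest in line 794, while 2 were lowest and 1 was highest in line 1269. Of all genes tested, 22.0% were highest in line 794 and 17.1% lowest in line 1269. In this list 5 of 7 genes were above 0 for KO and 5 of 7 for dysplasia, and edgeR called 0 in both, the median log2 differences being 0.086 and 0.12. For KO it was 3 of 7 in non-dysplastic and 6 of 7 in dysplastic lines. Among those with the smallest p-values, Tm7sf2, a sterol reductase, had a log2 fold change for KO of 0.42 with SE 0.47, and Rdh11, a retinol dehydrogenase, one of 0.26 with SE 0.22.

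Of 14 genes of sterol uptake, storage and export, 12 were above 0 for dysplasia with a median of 0.27, 7 were above 0 for KO with a median of 0.0024, and edgeR called 0 in both. At an unadjusted p under 0.05 by edgeR there were 3 for dysplasia and 0 for KO, beside 5.91% and 4.03% of all genes. Soat1, which esterifies cholesterol, had a log2 fold change for dysplasia of 0.56 with SE 0.22, and Npc1l1, a sterol importer, had -2.08 with SE 0.69 at levels of 0.0865 to 5.51 CPM. For KO, Osbpl5, an oxysterol-binding protein, had -0.42 with SE 0.18.

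In line 794 the cholesterol exporters Abca1 and Abcg1 were at their lowest, 0.231 and 0.202 CPM. The other lines also had low levels, 0.906 to 2.91 and 0.429 to 3.32 CPM. These exporters were singled out after their values were seen. Of the 14 genes of their list, 7 were highest and 4 lowest in line 794, against 22.0% and 20.8% of all genes tested.

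Of 12 genes of SREBP control, 5 were above 0 for KO and 6 for dysplasia, with medians of -0.064 and -0.0055 and 0 calls by edgeR. Mbtps2, a protease that releases SREBPs, had the smallest p, with a log2 fold change of -0.28 and SE 0.10 for KO. Of 20 further fatty acid and triglyceride synthesis genes tested, 14 were above 0 for KO and 12 for dysplasia, with medians of 0.14 and 0.17 and 0 calls by edgeR. Acsl4, an acyl-CoA synthetase, had a log2 fold change of 0.48 with SE 0.18 for dysplasia, and Pnpla3, a lipase, one of 0.94 with SE 0.39 for KO at no more than 1.08 CPM.

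Genes of fatty acid oxidation and ketogenesis were mostly lower in the dysplastic KO lines. Of 15 such genes, 14 were below 0 for dysplasia and 12 for KO, with medians of -0.29 and -0.20, and edgeR called 0 in both. At an unadjusted p under 0.05 by edgeR there were 2 for dysplasia and 1 for KO, beside 5.91% and 4.03% of all genes. Within dysplastic lines there were 5 for KO, and within KO lines 5 for dysplasia, beside 4.36% and 7.54% of all genes. Within non-dysplastic lines there were 0 for KO, and within WT lines 0 for dysplasia, beside 1.91% and 1.16%. The classes differed in direction. Among dysplastic lines 14 of 15 were lower in KO, with a median of -0.48, whereas among non-dysplastic lines 12 of 15 were higher, with a median of 0.16. Dysplastic KO lines were lower than non-dysplastic KO lines for 14 of 15, with a median of -0.62, while in WT lines 8 of 15 were lower, with a median of -0.0045. The interaction was below 0 for 15 of 15 genes, with a median of -0.46, beside 6014 of all 13476 genes tested, and edgeR called 0. Hadha and Hadhb, the subunits of the mitochondrial trifunctional protein, had log2 fold changes for dysplasia of -0.41 and -0.39, with SE of 0.13 and 0.12 and an edgeR adjusted p of 0.700 each. Hadha had 152 and 198 CPM in the dysplastic KO lines and 247 to 312 CPM in all others. Of the 15 genes, 7 were lowest in line 794, against 20.8% of all genes tested. Proliferation genes were below 0 for 7 of 10 in KO and 8 of 10 in dysplasia, with medians of -0.12 and -0.13 and 0 calls by edgeR. Here too the classes differed, since KO was higher for 8 of 10 in dysplastic lines and for 0 of 10 in non-dysplastic lines, and dysplasia for 8 of 10 in KO lines and for 0 of 10 in WT lines. The interaction was above 0 for 10 of 10, with a median of 0.51 and 0 calls by edgeR, beside 55.4% of all genes above 0. All 10 were highest in line 1269 and lowest in line 650. KO line 1270 exceeded WT line 300 in Mki67, at 484 against 305 CPM, and in every other proliferation gene except Tyms, at 83.0 against 84.0 CPM. The lower values of non-dysplastic KO were thus not shared by all pairs of its lines with WT lines. Whether the class differences of these lists rest on single lines was not tested.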

How the data were processed

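RNA sequencing counts were deposited by the authors as whole numbers of reads per gene symbol, with no normalization, for 20 libraries. The tools named are bcl2fastq and STAR 2.5, with mm9 as genome build, per the submitters' processing notes. Annotation, counting settings and strand use were not given in the sources used here. Reads of overlapping genes or of paralogs therefore cannot be assigned with certainty. Depth was 5669521 to 16323270 counts per library.

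Counts were summed per line and fitted with edgeR 4.0.16 in R 4.3.3, with its filter on low expression (13476 of 18180 genes with a count), trimmed mean of M-values scaling and robust quasi-likelihood tests on 4 means, 1 for each combination of genotype and dysplasia, which left 4 residual degrees of freedom. P-values were adjusted by Benjamini-Hochberg over all genes tested, at 0.05, and SE was derived from the test statistic. Whether the lines derive from different animals is not in the labels. The p-values then reflect only how these lines vary, which may be technical. DESeq2 1.42.0 on line sums and limma 3.58.1 (voom) on libraries with the line as a correlated block were alternatives, as were other scaling, no filter, 5 group means, sex as a covariate, and leaving out each line or the 6 libraries that stand apart, which had the highest first-component scores of within-line deviations. The procedures were tested on simulated data.

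The genes and lists were chosen with earlier results of these data known. Values in every line are printed for up to 4 genes with the smallest unadjusted p in each of the 7 comparisons and for Sqle, Insig1, Insig2, Srebf1, Srebf2, Fasn, Scd1 and Scd2, and of each further list up to 3 genes with the smallest p in a comparison could be named. Promoter sequences are from RefSeq, GRCm38.p6, and were matched by symbol, since the counts carry no coordinates. Python 3.11.15 and pandas 2.3.3 were used for the summaries. Some genes of the further lists are not reported here by name.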

Additional observations from a re-analysis of the deposited data

Results flagged for a closer look

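In groups of 4 lines, the gap between an extreme line and its nearest neighbour was compared with the whole range of the group by Dixon's criterion. Of 124 checks 6 exceeded the critical value, where chance gives about 1 in 20, or 6.2. Among WT lines, line 1269 was low for Idi1 with 22.7 CPM against 30.8 to 32.4 in the other lines, for Fdps with 134 CPM against 222 to 245, and for Dhcr7 with 57.5 CPM against 90.6 to 99.3. Among KO lines, line 1270 was low for Hsd17b7 with 35.6 CPM against 62.4 to 68.1. Among dysplastic lines, line 794 was high for Acly with 544 CPM against 430 to 434, and line 565 was low for Fads1 with 52.0 CPM against 70.9 to 74.4.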

How the results depend on the processing

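The count of called genes was 0 in all 7 comparisons under each of 18 alternative settings, and the smallest adjusted p among them was 0.0815. Of 756 recomputed values, 3 medians moved by more than the SD of the line medians (0.35 on the log2 scale), 1 of them across 0, and 1 single gene changed direction. Medians that moved by less than that SD also crossed 0 where the ranges below do. Leaving out 1 line at a time gave medians of the 31 genes from -0.0005 to 0.33 for KO against WT over both classes, from -0.025 to 0.55 in non-dysplastic and from -0.21 to 0.33 in dysplastic lines. The same gave 0.088 to 0.47 for dysplasia over both genotypes, 0.091 to 0.74 in WT lines, -0.098 to 0.54 in KO lines and -0.43 to 0.18 for the interaction. The interaction of Ebp was reversed without line 300, at -0.17, and reached 0.57 in another such fit. The cause was not tested. A class left with 1 line is assumed to vary like the others.

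Library numbers are shared between lines, and the deviations of same-numbered libraries correlated at -0.85 to 0.83, with a median of 0.13 and 32 of 62 pairs over 0.1. Not every pair was over 0.1, so the numbers were not taken to pair libraries, although 565-3, 752-3, 794-3 and 801-3 all stand apart, as do 300-2 and 650-2. With the number as a replicate block, limma-voom called 0 of the 31 genes in each comparison, and the median for dysplasia was 0.41, against 0.27 without it.

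Each class holds 2 lines, and depth was at least 5669521 counts per library. Over all genes, edgeR called 0 for dysplasia, DESeq2 153 and limma-voom 138, for KO against WT 0, 73 and 63, and for dysplasia in KO lines 0, 197 and 239. For KO against WT the counts of DESeq2 and limma-voom were 6 and 5 in non-dysplastic and 69 and 101 in dysplastic lines.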
